A study of Mus musculus with 18 samples.

Results

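The genes described here are 59 motile cilium genes read in the mouse spinal cord. Most encode parts of the beating cilium, while 1 encodes a transcription factor and 6 are grouped as assembly and other ciliary proteins. All 59 were chosen by name: every gene called Dnah, Dnai, Dnaic, Dnali, Cfap, Rsph, Drc or Tekt with a number, plus Foxj1, Ccdc39, Ccdc40, Hydin and Spef2, with a mean of at least 0.5 CPM over all libraries. CPM is a gene's count scaled to a common library size with TMM factors, so that libraries can be compared. Of 67 genes with such names in the table of 54446 genes, 59 reached this level, and all 59 were among the 20635 genes that passed edgeR's filter for low counts. The 8 genes left out had means between 0.141 CPM (Rsph6a) and 0.488 CPM (Cfap73). Just inside the limit were Dnah17 at 0.517 CPM and Cfap157 at 0.560 CPM.

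Total RNA of tissue labelled as whole spinal cord was sequenced from 18 untreated mice aged 10 months, with 3 animals and 3 libraries in each of 6 genotypes. The Q33 double knock-in carried human ATXN2 of the Q33 form together with human TDP-43, both heterozygous. The Q22 double knock-in carried the Q22 form of human ATXN2 together with human TDP-43, also both heterozygous. The TDP-43, Q33 and Q22 groups were heterozygous for 1 of these human sequences each, and the NTg group was non-transgenic C57BL/6 mice. The number after Q is the length of the glutamine tract of ATXN2, an RNA-binding protein in which a moderately longer tract raises the risk of amyotrophic lateral sclerosis. TDP-43, which also binds RNA, aggregates in the neurons of most patients. The promoter and site of the human sequences, the background of the knock-in lines, sex, litter and sequencing lane of each animal are not given in the sources used here. Reads from human ATXN2 and TDP-43 were not analysed here, so the genotypes rest on the labels.

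The central canal of the cord is lined by ependymal cells, whose motile cilia move cerebrospinal fluid. A motile cilium is built on a ring of microtubule doublets, the axoneme. Outer and inner dynein arms slide the doublets past each other, a nexin link and a molecular ruler made of Ccdc39 and Ccdc40 hold the repeat in place, and radial spokes carry signals between the doublets and the central apparatus. Foxj1 is the transcription factor that switches on the genes of motile cilia, and it acts together with RFX factors, which bind a palindromic DNA motif called the X-box.

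Promoter sequences from RefSeq (GRCm38.p6, 250 bases before to 50 bases after each start) were matched by symbol for 49 of the 59 genes and searched on both strands. The X-box was spelled as GTNNCC and GNAAC with 3 free bases between them, and 7 of the 49 genes (14.3%) held it, against 673 of all 27025 genes with a promoter (2.49%). They are shown because the X-box is the motif that the members' promoters can share, each as the gene's own strand from 5′ to 3′ with the match in capitals. The match is on the strand opposite to the gene in Cfap206, Cfap44, Cfap45 and Hydin, and that of Cfap298 reads the same on both strands.
Cfap206, chr4:34730208-34730237, minus strand: cgcgttccGTTTCCACGGTTACgcgactgc
Cfap298, chr16:90935016-90935045, minus strand: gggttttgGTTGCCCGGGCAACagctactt
Cfap44, chr16:44394764-44394793, plus strand: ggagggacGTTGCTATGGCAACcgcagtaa
Cfap45, chr1:172521103-172521132, plus strand: gttcttggGTTGCTATGGTAACgcgtcagc
Cfap61, chr2:145934768-145934797, plus strand: gccgcgtcGTTTCCTTAGCAACtgtgtgcg
Dnah17, chr11:118129357-118129386, minus strand: acgcccttGTCACCAGCGCAACcacagata
Hydin, chr8:110266948-110266977, plus strand: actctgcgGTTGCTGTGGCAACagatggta
Counted with -1 for the base before the start, the matches lie between -27 and 6, except those of Cfap298 (-188 to -175) and Dnah17 (-159 to -146).

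The shorter motif GTTGCC, which forms 1 arm of many X-boxes and can overlap the full match, was in 18 of the 49 promoters (36.7%) and in 14.1% of all genes. The forkhead motif TGTTTAC was in 3 (6.12%, against 4.05% of all genes), and the forkhead motif TGTTTGT in 1 (2.04%, against 7.604%). Cfap44, one of the genes called below, held both the X-box and GTTGCC. Its 250 bases before the start (chr16:44394549-44394798, plus strand) are given with the X-box and a separate GTTGCC, which reads GGCAAC on this strand, in capitals.
Cfap44: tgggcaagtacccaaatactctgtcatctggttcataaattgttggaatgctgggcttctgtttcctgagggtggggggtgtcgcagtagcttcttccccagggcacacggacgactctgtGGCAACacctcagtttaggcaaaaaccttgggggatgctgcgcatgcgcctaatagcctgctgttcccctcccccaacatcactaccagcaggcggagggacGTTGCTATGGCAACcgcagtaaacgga
The table had no entry for Cfap157, Cfap53, Cfap54, Cfap65, Cfap97, Dnah3, Foxj1, Rsph1, Rsph10b and Rsph4a. These matches describe letters in a window and say nothing of whether a factor binds there.

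Libraries held between 16061359 and 30978678 counts, and 3 counts, taken as the floor, came to between 0.100 and 0.174 CPM. Several library measures differed with the Q33 double knock-in. Mitochondrial ribosomal RNA took 23.4% to 28.7% of its counts, against 14.3% to 19.8% in NTg. TMM factors were 0.854 to 0.923, against 1.04 to 1.09 in NTg. Hox10 and Hox11 genes, which mark caudal cord, summed to 54.4 to 102 CPM in the Q33 double knock-in and 2.26 to 17.8 CPM in NTg. Y-linked genes summed to 182 CPM in replicate 1 of the Q33 double knock-in and to at most 1.95 CPM in its other 2 libraries and in all 3 NTg libraries. TMM factors of the Q33 double knock-in lay outside the range of all other libraries. Its share of mitochondrial ribosomal RNA did so only just, with 23.3605% in its replicate 3 against 23.3515% in replicate 2 of Q33. Neither measure can be told apart from the genotype. Hox sums also varied within genotypes, between 3.94 and 93.7 CPM in the Q22 double knock-in and between 1.32 and 72.9 CPM in Q33. Y-linked sums varied within both double knock-ins, TDP-43 and Q33. They were high in all 3 Q22 libraries (162 to 199 CPM) and low in all 3 NTg libraries. Between Q22 and NTg the Y-linked level therefore cannot be told apart from the genotype. The stretch of cord in each sample may differ and was not measured otherwise.

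Per length, the members spanned a wide range. Cfap36 had the highest mean level over the 18 libraries, 26.2 RPKM (CPM per kilobase of exon), followed by Tekt5 at 12.2, Cfap97 at 10.5, Foxj1 at 4.89, Cfap69 at 4.14, Cfap298 at 3.96, Cfap300 at 3.33, Cfap20 at 2.82, Ccdc39 at 2.80 and Rsph4a at 2.14 RPKM. Cfap36, Cfap97 and Cfap298 belong to the group of assembly and other ciliary proteins, Tekt5 is a tektin, a filament protein of the doublet wall, and Cfap69 and Rsph4a are parts of the central apparatus and of the spoke head. Dynein heavy chains were low per length: outer arm genes lay between 0.0321 RPKM (Dnah17) and 0.998 RPKM, and inner arm genes between 0.103 and 1.47 RPKM.

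Ependymal genes were read beside the set. Foxj1 was measured in every library, between 9.30 and 17.3 CPM. It is itself a member chosen by name and level, so its presence does not check the label of the set. A list of ependymal genes held 16 names, Foxj1 among them, and the 15 others were all found. Of these 15, 13 were tested, led by Cd24a at a mean of 96.5 CPM and Tppp3 at 89.9 CPM, genes that other cells of the cord also express. Tmem212, a gene more restricted to multiciliated cells, had the lowest mean of those tested, 0.253 CPM. The rest of the tested genes had means between 0.393 CPM (Meig1) and 4.36 CPM (Ak7). Sperm, another source of motile axonemes, was not detectable: 7 of its genes summed to at most 0.232 CPM in any library and none passed the filter. Choroid plexus genes summed to 6.65 to 12.97 CPM, led by Slc4a5 at a mean of 3.16 CPM, Kl at 2.899 CPM and Clic6 at 1.62 CPM. Of its defining genes, Ttr had a mean of 0.571 CPM and no count in 4 libraries, and Otx2 had no count in 17 libraries. In whole tissue, fewer ependymal cells and less RNA per cell cannot be told apart, and which cells supplied each member was not measured.

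Most members varied together from library to library. The correlation of each gene's log2 CPM (prior count 2) with the mean of the other members over the 18 libraries, which share depth, scaling and genotype, was above 0.7 for 32 genes, between 0.3 and 0.7 for 12 and below 0.3 for 15. It was highest for Cfap65 (0.97) and Cfap43 (0.97), the outer arm heavy chain Dnah5 (0.96) and the inner arm heavy chain Dnah6 (0.95). After each genotype's mean was removed, 30 genes were still above 0.7. By role the median was 0.87 for outer arms, 0.86 for inner arms, 0.91 for inner arm tethers and modifiers, 0.80 for the ruler and nexin complex, 0.79 for the central apparatus, 0.68 for the doublet wall and 0.65 for radial spokes.

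A minority did not follow. Cfap97 (-0.62), Tekt5 (-0.57), Dnah14 (-0.48), Cfap99 (-0.36), Cfap298 (-0.30) and Cfap36 (-0.29) had the lowest correlations, and the median of the 6 assembly and other proteins was -0.30. Foxj1 itself had a correlation of -0.02 with the mean of the other members, and 0.27 within genotypes. The median correlation of Foxj1 with the 58 other members was -0.04, with only Cfap36 (0.66), Rsph3b (0.63), Cfap99 and Tekt5 above 0.5. In these libraries most axonemal genes thus varied together, while Foxj1 and several members of highest level per length did not vary with them.

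**Figure D1:**
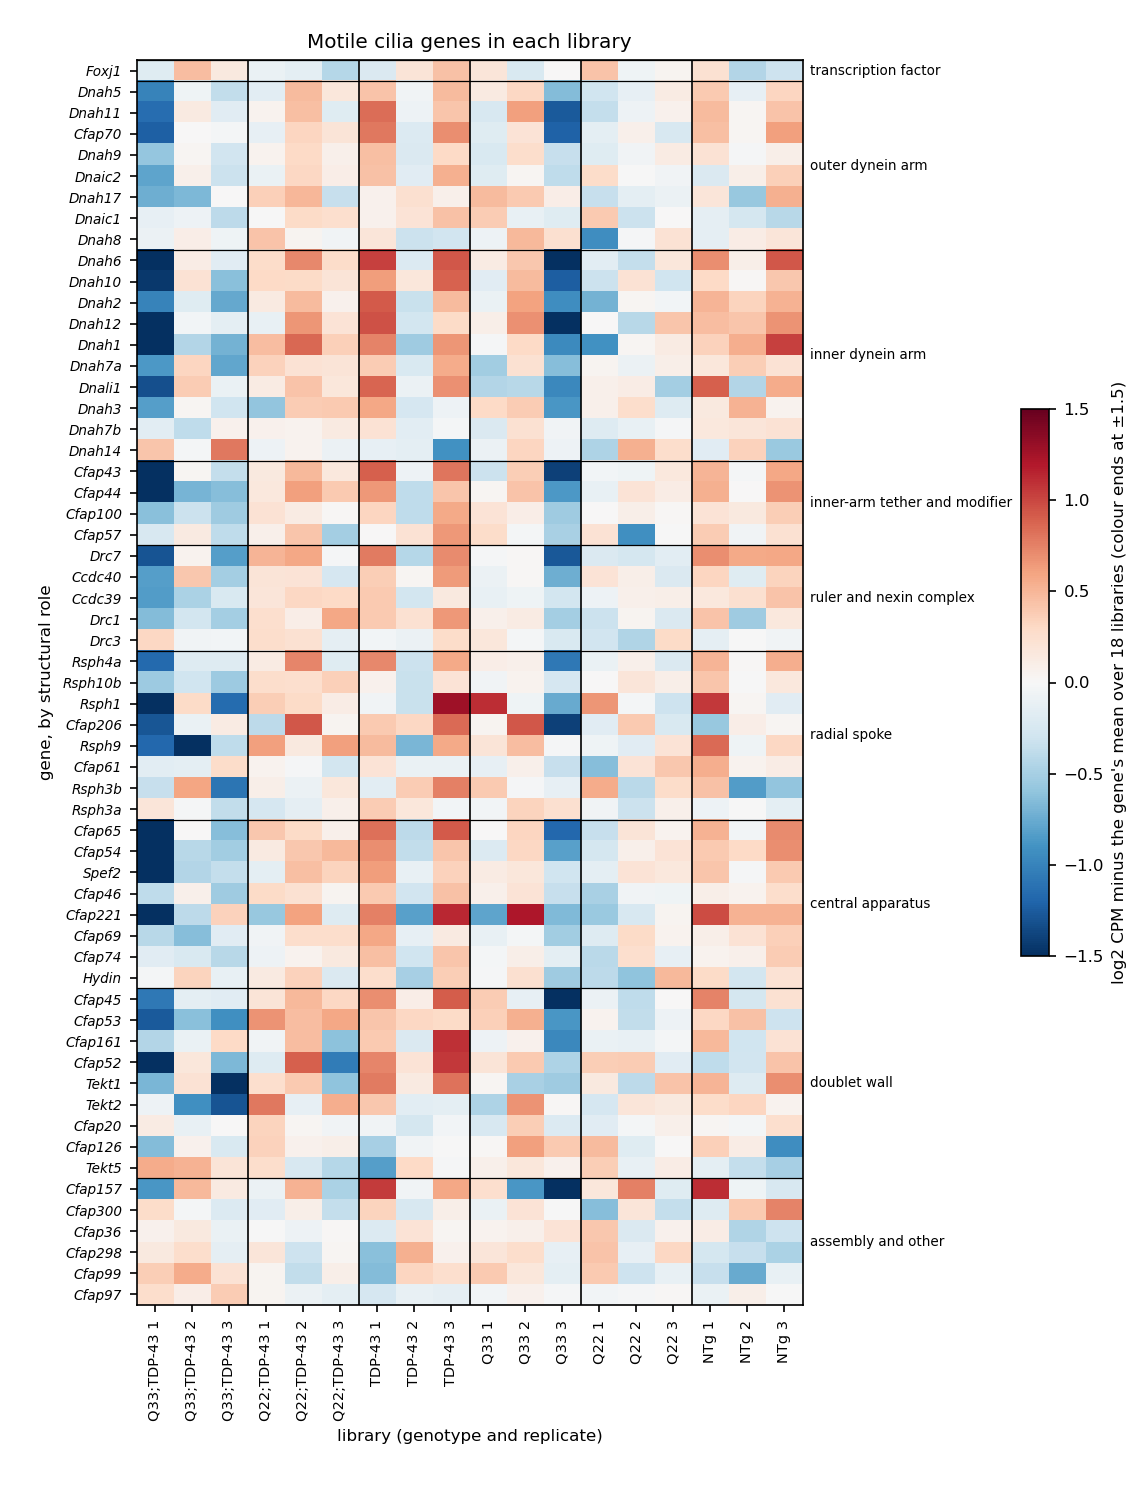
Heat map of the 59 genes (rows, grouped by structural role) in the 18 libraries (columns, grouped by genotype), coloured by log2 CPM minus the gene's own mean over all libraries. Replicate 1 of the Q33 double knock-in, where 49 of 59 genes were below their own mean, and replicate 3 of Q33, where 51 were, appear as blue columns, and replicates 1 and 3 of TDP-43 as red ones.

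The level of the set differed among libraries of 1 genotype as well as among genotypes. Taking in each library the median over the 59 genes of log2 CPM minus the gene's own mean, values were -0.73, -0.02 and -0.29 in the Q33 double knock-in and 0.13, 0.29 and 0.08 in the Q22 double knock-in. They were 0.40, -0.15 and 0.43 in TDP-43, 0.01, 0.21 and -0.51 in Q33, -0.10, -0.04 and 0.04 in Q22, and 0.31, 0.02 and 0.25 in NTg. All 3 Q33 double knock-in libraries were below all 3 of NTg and all 3 of the Q22 double knock-in, but they overlapped TDP-43, Q33 and Q22.

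The lowest libraries were replicate 1 of the Q33 double knock-in, which held the lowest value of 28 of the 59 genes, and replicate 3 of Q33, which held 6. The highest were replicates 3 and 1 of TDP-43, with the highest value of 17 and 14 genes. Dnah6, a heavy chain of the inner arm, spanned 1.13 to 13.8 CPM, a 12.1-fold range, while Cfap97 spanned 1.55-fold. The summed level of all members was 434 ± 37.5 CPM in the Q33 double knock-in and 520.0 ± 41.4 CPM in NTg (SD, n = 3 each), with 394 to 468 CPM against 472 to 545 CPM.

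The library measures went with these levels in some libraries and not in others. Replicate 1 of the Q33 double knock-in had the highest share of mitochondrial ribosomal RNA (28.7%) and the lowest member median (-0.73), while replicate 3 of TDP-43 had the lowest share (12.7%) and the highest median (0.43). Replicate 3 of Q33 had a Hox10 and Hox11 mean of 1.95 and a member median of -0.51. Replicate 1 of the Q22 double knock-in had a mean Hox10 and Hox11 level of 3.52 on the log2 CPM scale, close to the 3.53 of replicate 2 of the Q33 double knock-in, and a member median of 0.13. Replicate 2 of Q33, with a Hox mean of 2.72 and 23.4% mitochondrial ribosomal RNA, had a member median of 0.21. The part of these measures in the comparisons was not tested.

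**Figure D2:**
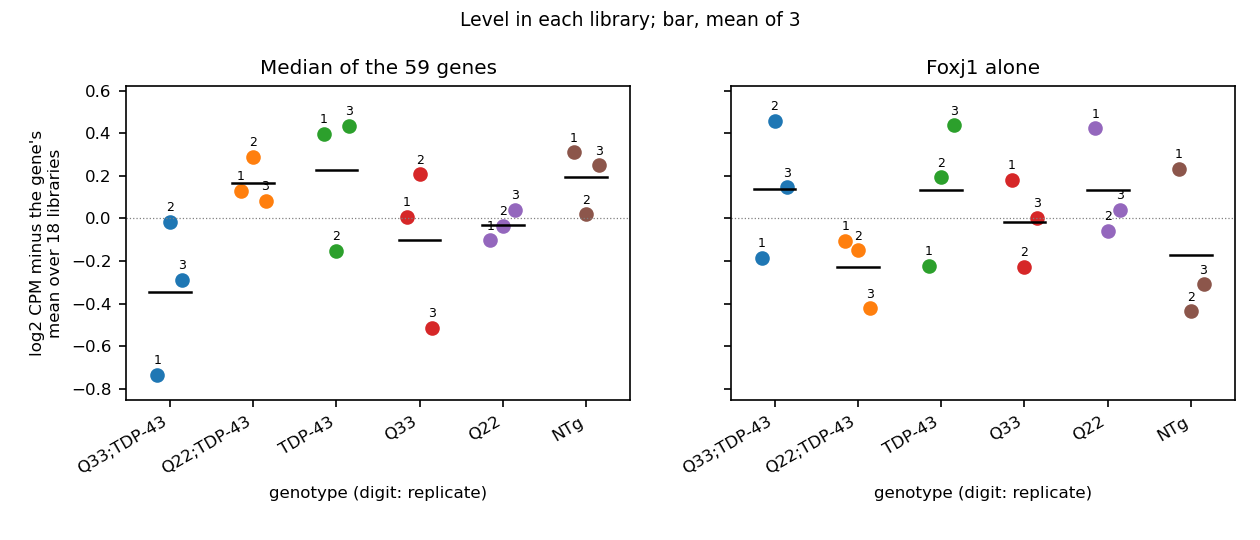
Left, median over the 59 genes of log2 CPM minus the gene's own mean, 1 point per library with its replicate number, and right, the same quantity for Foxj1 alone; bars are means of 3 libraries. On the left the Q33 double knock-in (-0.73 to -0.02) lies below NTg (0.02 to 0.31), and on the right its 3 libraries overlap those of NTg.

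The Q33 double knock-in was set against NTg to ask what both human sequences together changed. Of the 59 members, 12 were lower in the Q33 double knock-in and 1 was higher by edgeR's quasi-likelihood test (adjusted p under 0.05) (13 called), while 12.1% of all genes tested were called, 6.39% lower and 5.68% higher. At an unadjusted p under 0.05 there were 25 members, against 28.4% of all genes. The estimate was below 0 for 48 of the 59 members, against 51.4% of all genes, and the median log2 fold change was -0.62, against -0.01 for all genes. In 20 members all 3 Q33 double knock-in libraries lay below all 3 NTg libraries, and in 4 above them, while 14.1% of all genes lay wholly below and 16.5% wholly above. The genes that fell encode the ruler, the nexin complex, inner arms and their tethers, radial spokes, the central apparatus and the doublet wall. No outer arm gene was called.

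Replicate 1 of the Q33 double knock-in carried much of this count. Without it, Ccdc39 alone was called (log2 fold change -0.65, edgeR adjusted p = 0.0345), the median of the members was -0.41, and 2.84% of all genes were called. The 5 libraries then left all had Y-linked sums of at most 1.95 CPM. Without NTg replicate 1, 2 or 3, 6, 8 and 5 members were called, and with library totals in place of TMM, which put the median of all genes at -0.25, 22 were, all lower. Shares of all genes called without an NTg replicate or under library totals are not given here. These counts therefore do not set the members apart from all genes.

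Ccdc39, a component of the ruler (ENSMUSG00000027676.11, chr3:33812362-33844310 of mm10, minus strand), had 11.4, 14.7 and 17.4 CPM in the Q33 double knock-in and 22.8, 24.2 and 27.5 CPM in NTg. Every Q33 double knock-in library was below every NTg library. The log2 fold change was -0.80 (SE 0.15, edgeR adjusted p = 0.0041), and the adjusted p stayed between 2.76e-06 and 0.0345 under all 11 alternative settings. Its partner Ccdc40 had 1.55, 3.76 and 1.94 CPM against 3.52, 2.47 and 3.55 CPM in NTg, with overlap, and did not pass (-0.42, SE 0.30, adjusted p = 0.391). Of the nexin complex, Drc7 fell (0.529, 1.48 and 0.768 CPM in the Q33 double knock-in, 2.37, 2.16 and 2.17 CPM in NTg, log2 fold change -1.29, SE 0.40, adjusted p = 0.0439). Drc1 had an estimate of -0.58 (adjusted p = 0.107) and Drc3 one of 0.13.

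Inner arms gave 2 lower genes of 10 (median -0.72, 9 below 0) and outer arms 0 of 8 (median -0.54, 7 below 0). Dnah1 (ENSMUSG00000019027.8, chr14:31260375-31323896, minus strand), a heavy chain of the inner arm, had 1.10, 3.12 and 2.57 CPM in the Q33 double knock-in and 5.43, 6.27 and 8.78 CPM in NTg, without overlap. Its log2 fold change was -1.62 (SE 0.40, adjusted p = 0.0157), the largest fall among the members called. Dnah2, a heavy chain of the double-headed inner arm, had 2.31, 4.12 and 2.71 CPM against 6.69, 5.91 and 6.78 CPM in NTg (-1.10, SE 0.34, adjusted p = 0.0444), also without overlap.

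Tethers and modifiers of the inner arm gave 2 lower genes of 4. Cfap44 (ENSMUSG00000071550.14, chr16:44394796-44482428, plus strand), whose promoter is shown above, is known from algae and ciliates to tie the double-headed inner arm to the doublet. It had 4.27, 7.63 and 7.95 CPM in the Q33 double knock-in and 18.1, 12.5 and 19.9 CPM in NTg (log2 fold change -1.37, SE 0.30, adjusted p = 0.0086), with every Q33 double knock-in library below every NTg library. It lost its call in 1 of 11 alternative settings, without Q33 double knock-in replicate 1. Cfap100, known from algae as a modifier of inner arms, had 2.16, 2.68 and 2.30 CPM against 3.8998, 3.75 and 4.39 CPM (-0.77, SE 0.23, adjusted p = 0.0370). Cfap43, the partner of Cfap44, had a value of -0.95 and was not called.

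Radial spokes gave 2 lower genes of 8 (median -0.49). Rsph9 (ENSMUSG00000023966.8, chr17:46122035-46144216, minus strand), a protein of the spoke head, had 0.643, 0.360 and 1.17 CPM in the Q33 double knock-in and 2.87, 1.49 and 1.95 CPM in NTg (log2 fold change -1.58, SE 0.39, adjusted p = 0.0150). Rsph10b, another spoke protein, had 4.20, 4.997 and 4.20 CPM against 8.22, 6.11 and 6.87 CPM (-0.68, SE 0.16, adjusted p = 0.0113). In both genes the libraries of the genotypes did not overlap.

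The central apparatus gave 3 lower genes of 8, and all 8 estimates were below 0 (median -0.84). Cfap54 (ENSMUSG00000020014.17, chr10:92775619-93081618, minus strand) had 4.92, 10.9 and 10.1 CPM in the Q33 double knock-in and 19.1, 17.8 and 23.6 CPM in NTg (log2 fold change -1.25, SE 0.30, adjusted p = 0.0128). Spef2 (ENSMUSG00000072663.12, chr15:9578193-9748868, minus strand) had 2.34, 5.76 and 6.10 CPM against 10.5, 7.71 and 10.3 CPM (-1.04, SE 0.28, adjusted p = 0.0220), and Cfap69 had 24.01, 20.6 and 28.5 CPM against 34.1, 37.1 and 41.2 CPM (-0.64, SE 0.17, adjusted p = 0.0238). In these 3 genes the libraries of the genotypes did not overlap. Hydin (ENSMUSG00000059854.8, chr8:110266977-110610253, plus strand), which builds a projection of the central apparatus and holds an X-box, had 7.71, 9.95 and 7.27 CPM against 9.63, 6.47 and 9.18 CPM in NTg, with overlap (-0.04, SE 0.28, adjusted p = 0.944).

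The doublet wall gave 1 lower and 1 higher gene of 9. Cfap53, a protein inside the doublet, had 0.302, 0.520 and 0.406 CPM in the Q33 double knock-in and 1.07, 1.18 and 0.665 CPM in NTg (log2 fold change -1.26, SE 0.39, adjusted p = 0.0409). Tekt5 (ENSMUSG00000039179.13, chr16:10357948-10395490, minus strand) was the member that rose, with 31.5, 30.8 and 24.5 CPM against 19.3, 16.6 and 15.1 CPM in NTg (0.75, SE 0.22, adjusted p = 0.0342), but it was not called under library totals (0.50, adjusted p = 0.0839). The 6 assembly and other proteins had a median of 0.23 with none called, and the highest estimate among all members was that of Cfap99 (0.77, adjusted p = 0.0811). Foxj1 (ENSMUSG00000034227.7, chr11:116330704-116335399, minus strand) had 11.1, 17.3 and 13.96 CPM in the Q33 double knock-in and 14.8, 9.30 and 10.2 CPM in NTg, with overlap (0.28, SE 0.21, adjusted p = 0.402).

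**Figure D3:**
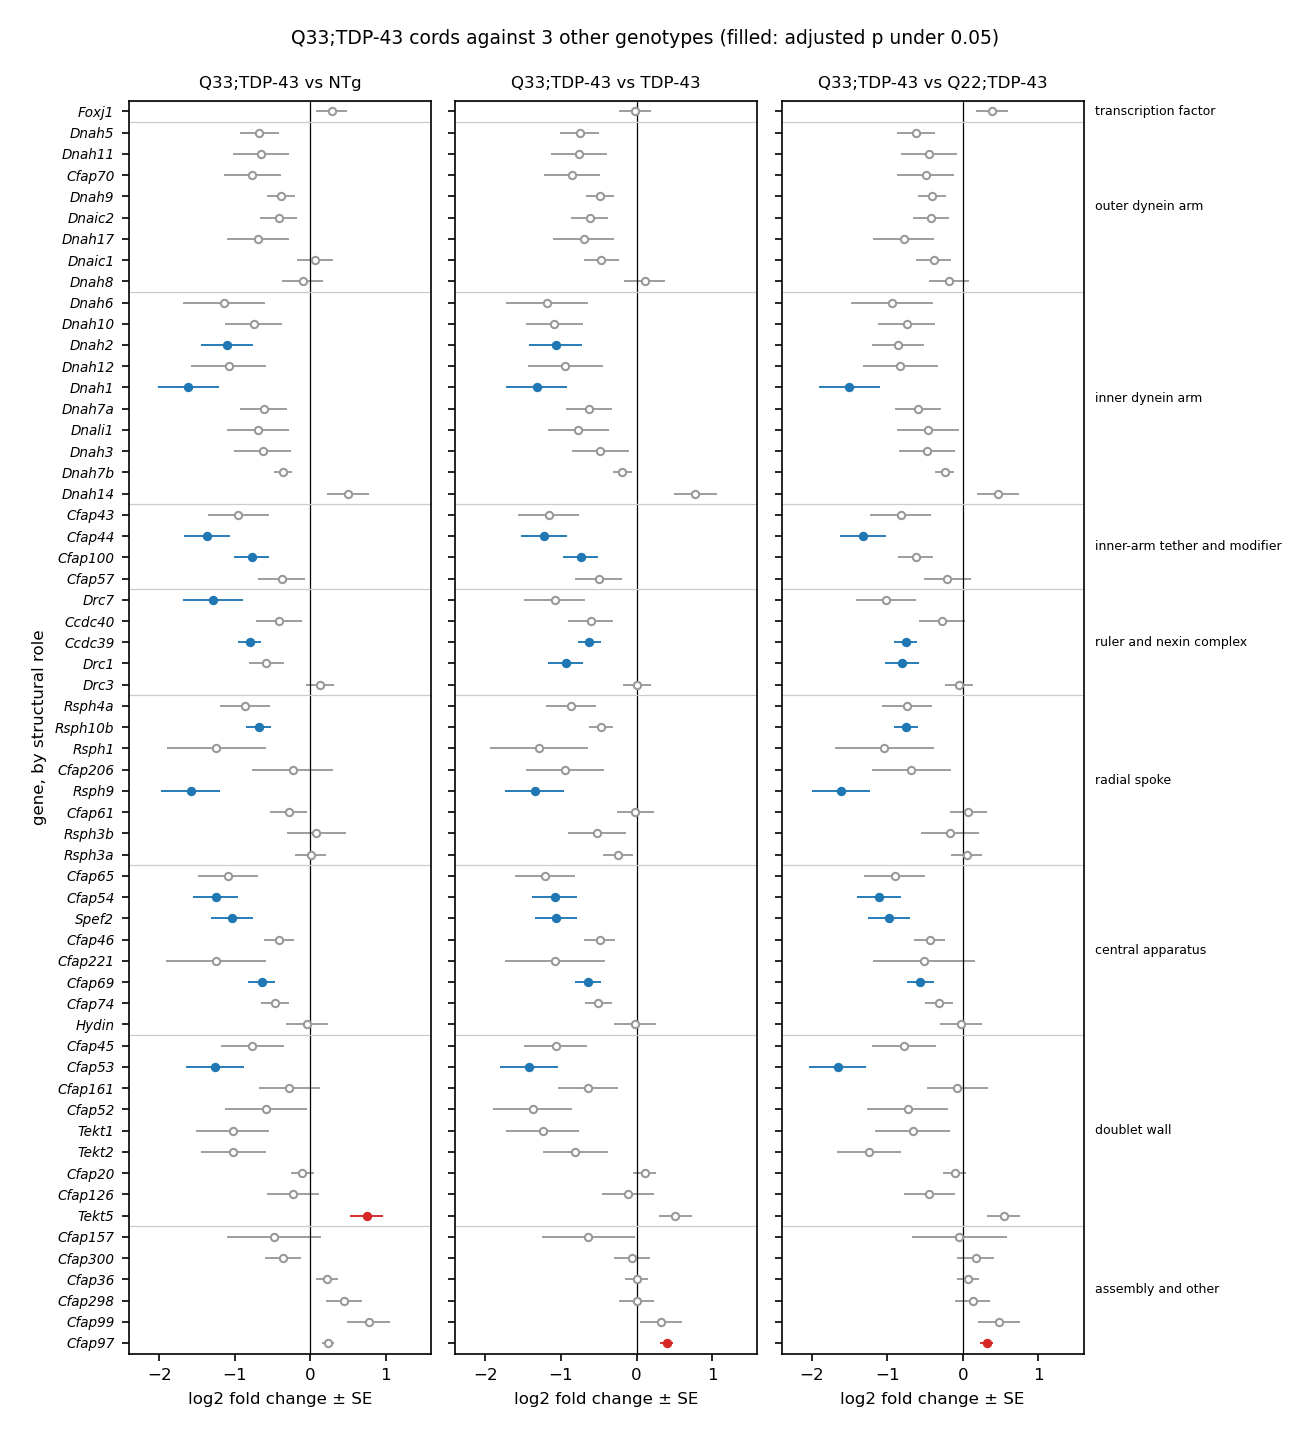
Log2 fold change ± SE (edgeR) of each of the 59 genes, grouped by role, in the Q33 double knock-in over NTg, over TDP-43 and over the Q22 double knock-in. Filled points have an adjusted p under 0.05, blue for lower and red for higher. Over NTg, 48 of 59 estimates lie left of 0. The 3 comparisons share the Q33 double knock-in libraries.

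The Q33 double knock-in was also compared with TDP-43, which differs by the Q33 form of ATXN2. All comparisons of the Q33 double knock-in share its 3 libraries, so their values are set side by side and are not independent of each other. Against TDP-43, 11 members were lower and 1 was higher, 12 called, while 12.6% of all genes were called, 6.66% lower and 5.98% higher. There were 30 members at an unadjusted p under 0.05, against 28.6% of all genes. The median of the members was -0.64. The lower genes were Cfap53 (-1.42), Rsph9 (-1.35), Dnah1 (-1.32), Cfap44 (-1.22), Cfap54 (-1.08), Dnah2 (-1.07), Spef2 (-1.07), Drc1 (-0.94), Cfap100 (-0.74), Cfap69 (-0.64) and Ccdc39 (-0.62). Drc1 (ENSMUSG00000073102.7, chr5:30281388-30366695, plus strand), a scaffold of the nexin complex, had 3.06, 3.997 and 3.39 CPM in the Q33 double knock-in and 6.38, 5.72 and 7.66 CPM in TDP-43, without overlap (SE 0.23, adjusted p = 0.0149). Replicate 2 of TDP-43 was low, at 16.9 CPM for Ccdc39, 9.53 CPM for Cfap44 and 2.91 CPM for Dnah1. Without it 24 members were called, without TDP-43 replicate 1 there were 2, and without TDP-43 replicate 3, or without Q33 double knock-in replicate 1, only Cfap97. Without Q33 double knock-in replicate 2, 23 were called, and in a fit of these 2 genotypes alone none was. The share of all genes called in each of these refits is not given here, so the counts do not set the members apart from all genes.

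Against the Q22 double knock-in, which differs by the form of ATXN2, 10 members were lower and 1 was higher, 11 called, while 12.8% of all genes were called, 6.17% lower and 6.67% higher. Unadjusted p-values under 0.05 numbered 21 among the members, against 28.2% of all genes. The median of the members was -0.49, and 20 of them lay wholly below, against 14.1% of all genes. The lower genes were Cfap53 (-1.66), Rsph9 (-1.61), Dnah1 (-1.503), Cfap44 (-1.32), Cfap54 (-1.11), Spef2 (-0.97), Drc1 (-0.80), Ccdc39 (-0.76), Rsph10b (-0.76) and Cfap69 (-0.56). Ccdc39 had 23.1, 25.3 and 25.1 CPM in the Q22 double knock-in (edgeR adjusted p = 0.0047) and Rsph10b 7.38, 7.34 and 7.94 CPM (adjusted p = 0.0058), all above the Q33 double knock-in. Both kept their calls in all 11 alternative settings. Without Q33 double knock-in replicate 1, 3 members were called, without Q22 double knock-in replicate 3 there were 4, and without its replicate 2 there were 6. Shares of all genes called in these refits are not given here.

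Cfap97 (ENSMUSG00000031631.15, chr8:46151771-46195590, plus strand), a ciliary protein of less defined role, was the member that was higher in both of these comparisons. It had 64.5, 57.7 and 69.8 CPM in the Q33 double knock-in, 55.2, 50.3 and 48.6 CPM in the Q22 double knock-in and 45.1, 49.6 and 48.8 CPM in TDP-43. The Q33 double knock-in was above both without overlap, by 0.32 over the Q22 double knock-in (SE 0.08, adjusted p = 0.0177) and by 0.40 over TDP-43 (SE 0.08, adjusted p = 0.0060). Under library totals neither call held (0.09, adjusted p = 0.521, and 0.17, adjusted p = 0.185). The call over the Q22 double knock-in was lost in 7 of 11 alternative settings (adjusted p 0.0041 to 0.521), among them the fit without Q33 double knock-in replicate 1 or 3 and without Q22 double knock-in replicate 2 or 3. The call over TDP-43 was lost in 2 of 11, the other being the fit of these 2 genotypes alone.

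Against Q33, which differs by human TDP-43, edgeR called no member and 0.892% of all genes. DESeq2 called 2 members, and its share of all genes called is not given here. At an unadjusted p under 0.05 there were 9 members, against 17.7% of all genes. The median of the members was -0.26, and the smallest adjusted p was that of Rsph9 (0.643, 0.360 and 1.17 CPM in the Q33 double knock-in, 1.79, 2.17 and 1.54 CPM in Q33, log2 fold change -1.36, SE 0.39, adjusted p = 0.0852). Replicate 3 of Q33 was low in many members, with 6.83 CPM for Cfap44 and 1.23 CPM for Dnah6, against 12.7 and 16.7 CPM and 7.29 and 8.91 CPM in the other Q33 libraries.

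In the 4 other genotypes no member differed from NTg by edgeR's test or by DESeq2. At an unadjusted p under 0.05, 1 member was different in the Q22 double knock-in (Cfap300, an assembly factor, median of all members -0.06, 2.3% of all genes), 1 in TDP-43 (Dnaic1, an outer arm intermediate chain, median 0.05, 4.23% of all genes), 6 in Q33 (median -0.27, 7.28% of all genes) and 6 in Q22 (median -0.25, 4.23% of all genes). By adjusted p, 0.00969% of all genes were called for the Q22 double knock-in and 0% for TDP-43, Q33 and Q22. In Q33, Ccdc39 had 18.9, 19.4 and 16.9 CPM, below all 3 NTg libraries, but its log2 fold change of -0.44 did not pass. Drc7 had 1.41, 1.45 and 0.537 CPM (-1.004) and was also not called. Without the filter for low counts 3 members were called in Q33 and 2 in Q22, with the shares of all genes under this setting not given here.

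Comparisons among the remaining genotypes gave 0 members called by edgeR or DESeq2. At an unadjusted p under 0.05 edgeR gave 0 members for the Q22 double knock-in over Q22 (median 0.18, 4.12% of all genes), over TDP-43 (median -0.12, 2.41%) and for Q33 over Q22 (median -0.06, 2.14%), and by adjusted p 0% of all genes were called in the 3. The interaction of Q33 with TDP-43, the difference of the double knock-in from TDP-43 beyond that of Q33 from NTg, had a median of -0.33, 5 members at an unadjusted p under 0.05 (13% of all genes) and 0 called by edgeR or DESeq2. These 5 were Cfap53 (-1.34), Cfap97 (0.40, adjusted p = 0.245), Dnaic1, Drc1 and Rsph9. The interaction of Q22 with TDP-43 had a median of 0.13, 2 members at an unadjusted p under 0.05 (4.01% of all genes) and 0 called by edgeR or DESeq2. Of all genes, 0% were called for either interaction, so a greater effect of both human sequences together was not shown for any member.

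In the test of any difference among the 6 genotypes, Ccdc39 was the only member called (adjusted p = 0.0304), while 4.16% of all genes were called. At an unadjusted p under 0.05 there were 15 members, and 19.4% of all genes were under it. After Ccdc39, the smallest p-values were those of Rsph10b (adjusted p = 0.0565), Cfap97 (0.0612), Cfap44 (0.0707) and Cfap54 (0.0958), then Dnah1, Cfap69, Cfap53, Drc1 and Rsph9. Mean Ccdc39 was 14.5 ± 2.99 CPM in the Q33 double knock-in, 24.5 ± 1.24 in the Q22 double knock-in, 22.1 ± 4.995 in TDP-43, 18.4 ± 1.35 in Q33, 20.8 ± 1.25 in Q22 and 24.9 ± 2.42 in NTg (SD, n = 3 each). The call was lost without NTg replicate 3, Q22 double knock-in replicate 2 or 3, or Q33 double knock-in replicate 1 or 2.

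Other genes of cilia were read in the Q33 double knock-in against NTg, where edgeR called 6.39% of all genes lower and 5.68% higher. In a list of other axoneme parts 5 of 37 tested genes were lower, with a median of -0.51. Mns1, a protein inside the doublet, had 1.44, 3.36 and 2.44 CPM in the Q33 double knock-in and 7.30, 4.47 and 6.56 CPM in NTg, without overlap (-1.37, edgeR adjusted p = 0.0095). The central apparatus gene Spag17 (-1.66), Iqub (-0.94), Kif6 (-0.60) and Ttc12 (-0.51) were the other 4, and Spag17 and Ttc12 were chosen for naming after their values were seen. Of 18 genes of outer arm docking and dynein assembly, 2 were lower, Armc4 (-1.41, adjusted p = 0.0282), which docks the outer arm, and Dnal1 (-0.33, adjusted p = 0.0332), a dynein light chain, with a median of -0.12. Without Q33 double knock-in replicate 1, 0 genes of either list were called, with 6 and 3 at an unadjusted p under 0.05 and medians of -0.37 and -0.14.

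The program that builds multiciliated cells had 6 of 24 genes lower, against 6.39% of all genes, and a median of -0.31. Gmnc, which starts multiciliated differentiation, had 0.151, 0.0400 and 0.271 CPM in the Q33 double knock-in and 0.765, 0.822 and 0.931 CPM in NTg (-2.46, adjusted p = 0.0126), with the Q33 double knock-in close to the floor. Rfx2, an RFX factor of motile cilia, had 1.13, 2.998 and 2.44 CPM against 5.58, 4.06 and 5.06 CPM (-1.19). Rfx1 (-0.71, adjusted p = 0.0067), Rfx4 (-0.58, adjusted p = 0.0098) and Rfx3 (-0.54) also fell, as did Jhy (-1.25), a ciliogenesis gene. Rfx1 and Rfx4 are expressed by other cells of the cord as well. Rfx2, Rfx3 and Jhy were chosen for naming after their values were seen. Without Q33 double knock-in replicate 1, 1 gene of this list was called, and the median was -0.23.

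Genes of transport and of primary cilia, which most cells carry, were read in the same way. Of 42 genes of intraflagellar transport and the BBSome, 1 was higher, Ift74 (0.38, adjusted p = 0.0302), and 0 were lower, with a median of -0.03. Of 23 genes of the primary cilium membrane 3 were lower, Tulp3 (-0.39), Pkd2 (-0.35) and Gpr161 (-0.41), with a median of -0.11 and 16 estimates below 0. Among all genes tested, 6.39% were called lower and 5.68% higher. Under library totals 14 transport genes and 7 primary cilium genes were lower, the median of all genes then being -0.25, and without Q33 double knock-in replicate 1, 0 genes of both lists were called, with 5 of each at an unadjusted p under 0.05. Of the 13 ependymal genes tested, 0 were called by edgeR, 2 had an unadjusted p under 0.05 and DESeq2 called 1, with a median of -0.41. Of the 13 estimates, 10 were below 0. The 2 genes of highest level, Cd24a and Tppp3, had values of 0.62 (edgeR adjusted p = 0.138) and 0.03. The ependymal list summed to 187 to 317 CPM in the Q33 double knock-in against 172 to 213 CPM in NTg. Cd24a and Tppp3, which other cells also express, make up most of that sum, so it does not follow the other genes of the list.

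Against TDP-43 and the Q22 double knock-in, the medians of the Q33 double knock-in were -0.50 and -0.43 for other axoneme parts, -0.28 and -0.22 for the multiciliated program, -0.45 and -0.30 for ependymal genes, -0.19 and -0.18 for outer arm docking and assembly, -0.13 and -0.17 for the primary cilium and -0.08 and -0.07 for transport. Primary cilium genes had 3 of 23 lower in each of these comparisons, against 6.66% and 6.17% of all genes. Ak7, an axonemal adenylate kinase, was the ependymal gene called against TDP-43 (-1.17, adjusted p = 0.0344), and 0 were called against the Q22 double knock-in.

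**Figure D4:**
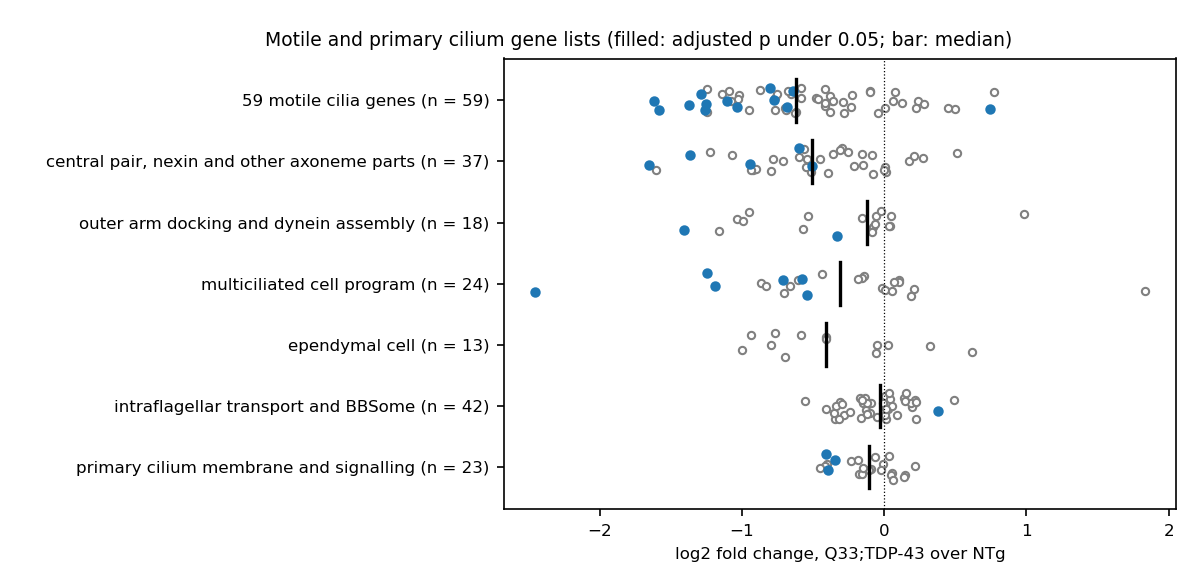
Log2 fold change of each tested gene in the Q33 double knock-in over NTg (edgeR), 1 row per gene list, with filled points for an adjusted p under 0.05 and a bar at the median. The medians are -0.62 for the 59 motile cilium genes, -0.51 for other axoneme parts, -0.31 for the multiciliated program and -0.41 for ependymal genes. They are -0.12 for outer arm docking and dynein assembly, -0.11 for the primary cilium and -0.03 for transport.

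Markers of other cells were read in the Q33 double knock-in against NTg, and their part in the results was not tested. Among all genes, 6.39% were called lower and 5.68% higher. Astrocyte genes had 3 of 8 lower (Slc1a3, Gfap and Aqp4) and 1 higher (Gjb6), with sums of 5789 to 7500 CPM in the Q33 double knock-in and 7198 to 7647 CPM in NTg. Gfap had 234, 477 and 466 CPM against 1431, 758 and 1258 CPM (-1.57, adjusted p = 0.0075), and Slc1a3 had a value of -0.96 (adjusted p = 0.0020). Meningeal fibroblast genes had 2 of 8 lower (Col1a2 and Aebp1, -0.96 and -1.74) and 0 higher, but only 3 of 8 estimates were below 0 and the median was 0.29. The sum of this list was 24.5 to 39.5 CPM in the Q33 double knock-in and 47.2 to 61.5 CPM in NTg. Neuron genes had 2 of 8 higher (Snap25 and Eno2) and 1 lower, and the list summed to 8897 to 10339 CPM against 5904 to 6678 CPM. The lower neuron gene was Syt1, with 138, 109 and 136 CPM against 239, 207 and 251 CPM in NTg (-0.88, adjusted p = 0.0023). Of the 5 choroid plexus genes tested, Kl alone was lower (1.32, 1.28 and 1.63 CPM against 3.33, 3.596 and 4.83 CPM, -1.497, adjusted p = 0.0011), and the list summed to 6.65 to 8.15 CPM against 8.94 to 11.9 CPM. Of 5 genes of the neurons that contact cerebrospinal fluid, 0 were called by edgeR or DESeq2 and 1 had an unadjusted p under 0.05 (sums of 10.9 to 18.3 CPM against 12.996 to 22.02 CPM). Without Q33 double knock-in replicate 1, 1 astrocyte gene was lower and Kl was still the choroid plexus gene called.

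Many members have long transcripts, and long genes were called lower more often among all genes. In the Q33 double knock-in against NTg, 5 of the 22 members with over 8 kb of exon were lower (22.7%), against 14.2% of all such genes. Of the 17 members of 3 to 8 kb 4 were lower (23.5%), against 7.27% of all, and of the 20 members under 3 kb 3 were lower (15%), against 2.97% of all. The medians of the members were -0.67, -0.42 and -0.53 from long to short, while those of all genes were -0.08, -0.0037 and 0.01.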

How the data were processed

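The members and all gene lists were chosen with earlier results of these data known. Read counts per gene were deposited by the authors in 1 table for all 18 libraries. Per the file headers, featureCounts 1.6.1 counted read pairs with strand on the exons of GENCODE genes of mm10 after TopHat alignment. Trim Galore 0.4.1, TopHat2, featureCounts and DESeq2 are named in the submitters' processing notes. Per the labels' protocols, RNA had integrity numbers above 7.5, ribosomal RNA was depleted, and stranded libraries of total RNA were read as pairs on 3 lanes. Each of these 3 lanes' share of a library was not given in the sources used here.

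Columns were tied to samples by the animal number in the sample titles. Symbols matched 54409 of 54446 gene identifiers. All 18 libraries entered 1 fit of the quasi-likelihood model of edgeR 4.0.16 (limma 3.58.1, R 4.3.3) with a term per genotype, TMM factors and the filter filterByExpr, and each comparison was two-sided. Benjamini-Hochberg adjustment ran over all 20635 genes in each comparison, with 0.05 as the threshold. The members were counted in 11 comparisons of 2 genotypes, 2 interactions and 1 test of any difference. SEs derive from the test, log2 CPM uses a prior count of 2, and RPKM divides CPM by summed exon length. The scripts were tested on simulated data. DESeq2 1.42.0, its size factors, library totals, no filter, fits of 2 genotypes and fits without each library were alternatives. The same settings were applied to the gene lists after the data were seen.

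The text names Foxj1, Ccdc39, Ccdc40, Hydin and Spef2; the 10 members of highest mean RPKM; the 10 with the smallest p in the test of any difference; up to 10 called members of largest change per comparison; members next to the 0.5 CPM limit; the 10 other genes of at least 1 CPM most like the members; and in each list the 3 called genes with the smallest p, or the 2 of highest level. Replicate numbers follow the order of the samples and pair nothing. Floors of 3 counts cover counting error only, since reads lacking molecular identifiers can repeat a molecule. The result of 1 other marker list is not reported here. P-values set a difference between genotypes against the spread between animals within genotypes, estimated in 1 fit of all 18 libraries.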

Additional observations from a re-analysis of the deposited data

How the results depend on the processing

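Under library totals, members called in the Q33 double knock-in were 22 against NTg, 27 against TDP-43 and 18 against the Q22 double knock-in, with 8 in the test of any difference. Without the filter for low counts they were 21, 28, 20 and 19, with 5 against Q33, 3 for Q33 and 2 for Q22 over NTg. DESeq2 called 2 against Q33 and 11 in the test of any difference, and the fit of 2 genotypes called 0 against TDP-43. Leaving out 1 library at a time gave 1 to 12 against NTg, 1 to 24 against TDP-43, 3 to 13 against the Q22 double knock-in, 0 to 1 against Q33, and 0 to 7 in the test of any difference. The causes were not tested. Shares of all genes called under these settings are not given beside the counts, so the counts do not set the members apart from all genes. No member called against NTg, TDP-43 or the Q22 double knock-in reversed under the alternatives run, but all lost the call under at least 1, except Ccdc39 against NTg, and Ccdc39 and Rsph10b against the Q22 double knock-in. A limit of 0.2 or 1 CPM in place of 0.5 CPM would have given 64 or 51 members. With 3 animals per genotype and members down to 0.517 CPM, small differences of low genes were not detectable at this depth. No paired analysis was possible because replicate numbers follow sample order and no label ties animals of different genotypes.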

Other observations

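Outside the members, the genes of at least 1 CPM whose log2 CPM was most like the members' mean over the 18 libraries, of 16224 such genes, were Ak9 (r = 0.957), Stoml3 (0.939), Cdhr3 (0.938), Spag16 (0.932), Traf1 (0.929), Zbbx (0.928), Wdr66 (0.926), Ccdc180 (0.924), Mak (0.921) and Efhb (0.919). Of these, Spag16, Wdr66 and Efhb are known parts of the motile axoneme, and Ak9 is an adenylate kinase. In the Q33 double knock-in over NTg, Traf1 fell by 1.53 and Mak, a kinase of cilia, by 1.64 on the log2 scale (edgeR adjusted p = 0.0267 and 0.0231). Ak9 had a log2 fold change of -1.14 (adjusted p = 0.167). These correlations describe 18 libraries that share scaling and genotype, and no test was made of them.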
